A study of Mus musculus with 8 samples.

Results

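The genes described were the suppressors of cytokine signaling, Socs1 to Socs7 and Cish. They were taken from the deposited expression table by their gene symbols, which gave 8 of 25124 genes. Their mRNA was followed in osteoclast precursor cells cultured with and without extracellular peroxiredoxin 1 (PRDX1) and the osteoclast differentiation factor RANKL. Socs1 and Socs3 were higher in both groups given 1 agent alone than in the untreated cells. The effect of PRDX1 on both was smaller in cells that also received RANKL. This difference was under 1.5-fold on the scale tested, which understates changes of low genes, and it depended on the processing for each. Socs5 was higher with RANKL, Socs6 was lower with RANKL, Socs4 and Socs7 passed the test of neither agent, and Cish and Socs2 rested on few reads.

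SOCS proteins end the signal of cytokine receptors that use JAK kinases and STAT transcription factors. Each has an SH2 domain, which binds phosphorylated tyrosines, and a SOCS box, which recruits elongins and a cullin and so marks the bound protein for degradation. SOCS1 and SOCS3 also carry a short stretch that blocks the JAK kinase itself. Several of the genes are switched on by the STATs that their proteins restrain, which makes a feedback loop. In the macrophage lineage, SOCS1 and SOCS3 are also known to be induced by ligands of Toll-like receptors. Osteoclasts, the cells that resorb bone, arise from this lineage when it meets RANKL in the presence of M-CSF.

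The cells were adherent bone marrow cells expanded in M-CSF, from mice of 6 to 8 weeks. The sample labels gave the strain as C57BL/6, whereas the cell culture methods of the study named ICR mice. The 4 groups had 2 libraries each: no PRDX1 + no RANKL, PRDX1 + no RANKL, no PRDX1 + RANKL, and PRDX1 + RANKL. PRDX1 was purified recombinant protein at 200 nM, RANKL was given at 100 ng/mL for 48 h, and all groups shared M-CSF at 30 ng/mL. The labels did not say whether the libraries of a group came from separate cultures or animals, so the p-values measure the spread between these libraries, which may be technical. Cells given heat-inactivated PRDX1 were not analysed here.

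The values were FPKM, the reads of a gene scaled to its transcript length and to the library total. The libraries held 27284604 to 46169508 reads. The replicates of every group differed by more than sampling noise (chi-square of 4.71 to 9.58 for each degree of freedom, where counting error alone gives about 1). The macrophage markers summed to 15718 to 17485 FPKM in the untreated cells, and all 8 of them averaged at least 0.5 FPKM. The 7 osteoclast markers summed to 32.3 to 33.3 FPKM without either agent, 79.5 to 83.9 with PRDX1, 1779 to 1872 with RANKL and 230 to 238 with both, so this list moved with each comparison described here. Other lists were higher with PRDX1 in both settings. The 4 stromal markers summed to 7.16 to 9.80 FPKM in the untreated cells, 15.5 to 15.6 with PRDX1, 6.98 to 8.88 with RANKL and 13.6 to 17.6 with both. The 4 neutrophil markers summed to 0.793 to 1.35, 2.98 to 3.47, 0.949 to 1.02 and 2.39 to 3.33 FPKM in the same order. The 4 T cell markers summed to 0.417 to 0.741, 0.902 to 1.01, 0.752 to 0.942 and 1.28 to 1.39 FPKM, with Cd3e at 0 in all 8 libraries. The sums of B cell markers (0.365 to 1.33 FPKM over the libraries), endothelial markers (1.47 to 5.31) and dendritic cell markers (1.495 to 4.12) were also higher with PRDX1 in both settings. Single genes of these lists did not all follow the sums. Without RANKL, the dendritic cell marker Cd209a went from 1.49 and 1.01 FPKM to 0.454 and 0.749 with PRDX1, whereas Ccr7 went from 0.070 and 0.050 to 1.08 and 0.914. The endothelial marker Cdh5 overlapped there (0.519 and 0.307, against 0.594 and 0.385), whereas Kdr was higher. Cd4 made up most of the T cell sums. The natural killer cell markers summed to at most 0.054 FPKM with Ncr1 at 0, and the mast cell markers Cpa3 and Mcpt4 were at 0. The part of the lists that moved in the Socs1 and Socs3 results was not tested. In bulk samples, fewer cells of a type and less RNA per cell cannot be told apart.

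The sequences before the transcription starts of Socs1 and Socs3 are shown because these were the members called with PRDX1. Both are the 250 bases upstream of the start, 5′ to 3′ on the strand of the gene, from RefSeq on GRCm38, the assembly that the mm10 coordinates of the table name. In Socs1, at chr16:10785537-10785786 on the minus strand, the capitals mark 2 overlapping matches to the interferon-stimulated response element (ISRE, GAAANNGAAA), at bases −83 to −74 and −77 to −68 from the start. In Socs3, at chr11:117969367-117969616 on the minus strand, the capitals mark a match to the gamma-activated site (GAS, TTCNNNGAA), the usual site of STAT dimers, at bases −154 to −146.
Socs1 promoter: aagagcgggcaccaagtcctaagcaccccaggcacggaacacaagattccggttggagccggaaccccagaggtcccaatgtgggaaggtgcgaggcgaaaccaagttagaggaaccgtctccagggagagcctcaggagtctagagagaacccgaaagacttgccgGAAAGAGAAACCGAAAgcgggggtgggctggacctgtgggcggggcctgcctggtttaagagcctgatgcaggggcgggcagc
Socs3 promoter: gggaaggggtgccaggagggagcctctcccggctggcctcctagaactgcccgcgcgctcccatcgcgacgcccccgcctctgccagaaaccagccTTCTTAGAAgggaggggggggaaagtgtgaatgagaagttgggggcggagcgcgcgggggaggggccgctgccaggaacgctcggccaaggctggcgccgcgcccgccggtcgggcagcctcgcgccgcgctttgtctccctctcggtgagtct

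Cish, a classical target of STAT5, is shown for its paired GAS letters, which are in capitals. They lay at the start of the transcript used for Cish in the expression table (NM_001317354), and other transcript starts were not examined. The stretch is chr9:107296657-107296680 on the plus strand, bases −2 to 22 counted from the first base of the transcript, with matches at bases 1 to 9 and 12 to 20.
Cish start: ttTTCCTGGAAagTTCTTGGAAat

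Both strands of the windows of 300 bases around the start were searched. The promoter table matched 4 of the 8 members, Socs1, Socs3, Cish and Socs4, and the start it gave for Socs4 was not that of the expression table. GAS letters occurred in 8.30% of the 32851 promoter windows of the table, and ISRE letters in 3.44%. AP-1 letters (TGANTCA) occurred in 7.81% and the NF-κB motif in 4.51%, and neither was matched in the 4 members' windows. The GAS and ISRE matches did not share bases with each other. A match is a description of letters and not evidence of a bound factor.

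Across the 8 libraries the members fell into 3 ranges of mRNA level. Socs5 and Socs4 had mean levels of 10.8 and 10.1 FPKM, above 76.2% and 75.2% of all genes in the table. Socs6 averaged 6.70 FPKM, Socs3 3.77, Socs7 3.47 and Socs1 2.28. Socs2 averaged 0.470 FPKM and Cish 0.172, above 53.2% and 48.9% of genes. The 6 others passed the filter of a mean of at least 0.5 FPKM and entered the test, together with 11694 further genes.

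**Figure D1:**
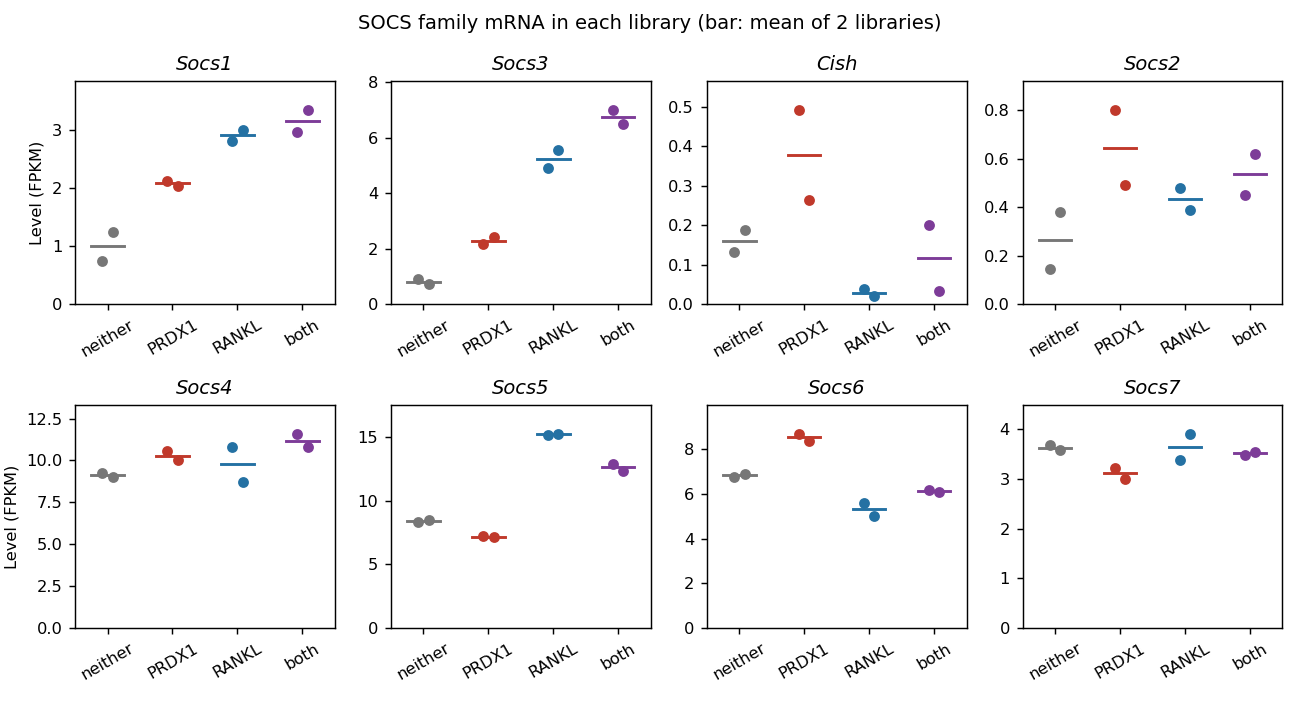
The level of each of the 8 members in FPKM (vertical axes, each starting at 0) is plotted for each library (points) in the 4 groups, with the mean of 2 libraries as a bar. Socs1 and Socs3 lie lowest in the untreated cells, Socs5 is highest with RANKL alone at 15.2 FPKM, and Socs6 is highest with PRDX1 alone at 8.51 FPKM.

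Socs1, an inhibitor of interferon signaling (NM_009896, chr16:10783809-10785536), was expressed at 0.75 and 1.24 FPKM in the untreated cells. With PRDX1 alone its level was 2.13 and 2.03 FPKM, with RANKL alone 2.81 and 3.00, and with both 2.96 and 3.34. The untreated libraries were below all the others, and the libraries with RANKL alone and with both overlapped. The untreated libraries held 27 and 63 Socs1 reads, and the remaining libraries 81 to 170.

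The mean Socs1 level rose from 0.996 ± 0.347 FPKM (SD, n = 2) to 2.08 ± 0.0700 with PRDX1 in the absence of RANKL, 2.09-fold. On the log2(FPKM + 1) scale, on which a change of a low gene is understated, this was 0.64 (SE 0.12, 95% interval 0.36 to 0.91, limma adjusted p = 0.00343). Genes with an adjusted p under 0.05 and a change of at least 1.5-fold on this scale were called, and Socs1 was called here. Without the first untreated library the change was 0.46 (adjusted p = 0.0243), under 1.5-fold, and with no filter on the level it was 0.64 with an adjusted p of 0.0675, so the call rests on those choices. With a pseudocount of 0.1 the change was 1.03, and by voom on the recovered reads 1.04.

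RANKL without PRDX1 raised Socs1 2.92-fold, to 2.90 ± 0.139 FPKM, a log2 change of 0.98 (SE 0.12, adjusted p = 6.39e-05). Added to PRDX1, RANKL gave a Socs1 level 1.52-fold higher, at 3.15 ± 0.267 FPKM. This log2 change of 0.43 (adjusted p = 0.0182, not under 0.05 in 4 of 14 alternatives) was under 1.5-fold on the tested scale, and by voom it was 0.61 (adjusted p = 0.0256), which was called. PRDX1 added to RANKL changed Socs1 by 0.09 on the log2 scale (95% interval −0.19 to 0.36, adjusted p = 0.603). The libraries of these groups overlapped.

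Socs3, the inhibitor of the IL-6 receptor family and of the G-CSF receptor (NM_007707, chr11:117966087-117969366), had the largest ratio between its highest and lowest group means among the tested members. Its level was 0.906 and 0.739 FPKM in the untreated cells, 2.17 and 2.42 with PRDX1, 4.91 and 5.56 with RANKL, and 6.98 and 6.48 with both. The 4 groups did not overlap and followed this order. The reads behind these levels were 73 and 84 in the untreated libraries and 185 to 877 in the others.

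PRDX1 without RANKL raised Socs3 2.79-fold, from 0.823 ± 0.118 to 2.29 ± 0.174 FPKM. The log2 change was 0.85 (SE 0.10, 95% interval 0.64 to 1.07, limma adjusted p = 0.000132), and it was called under every alternative tried. It was 1.38 with a pseudocount of 0.1 and 1.5 by voom. With Socs1, 2 of the 6 tested members were called in this comparison, both higher, against 5.79% of the 11700 genes tested. The members' median log2 change was 0.22, and that of all genes tested was −0.04.

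In cells that received RANKL, PRDX1 took Socs3 from 5.23 ± 0.466 to 6.73 ± 0.356 FPKM, 1.29-fold. The log2 change of 0.31 (SE 0.10, adjusted p = 0.0253) passed the test but not the fold threshold, and its adjusted p was not under 0.05 in 5 of 14 alternatives. Of the 6 tested members 0 were called with PRDX1 in the presence of RANKL, by limma and by voom, against 10.2% of all genes tested. A list of 6 cannot show a lower share. At an unadjusted p under 0.05, 3 members passed (Socs3, Socs5 and Socs6). At an adjusted p under 0.05, 2 members passed, beside 42.5% of all genes tested. The members' median was 0.13 and that of all genes −0.06.

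RANKL raised Socs3 in both settings. Without PRDX1 its mean level was 6.36-fold higher, a log2 change of 1.77 (SE 0.10, adjusted p = 1.48e-07), which was 2.71 by voom. In cells with PRDX1 it was 2.94-fold higher, a log2 change of 1.23 (SE 0.10, adjusted p = 7.35e-06). With both agents against neither, the Socs3 level was 8.18-fold higher and that of Socs1 3.16-fold higher. Those were the 2 members called there, against 12.8% of all genes tested, with log2 changes of 2.09 (adjusted p = 9.48e-08) and 1.07 (adjusted p = 6.42e-05).

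**Figure D2:**
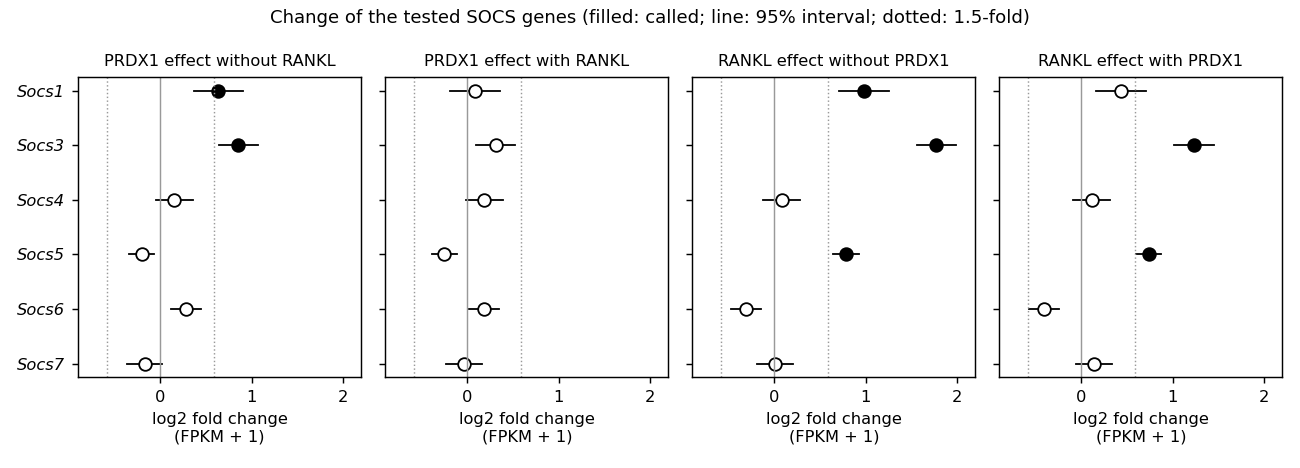
The log2 fold change of log2(FPKM + 1) (horizontal axes) of the 6 tested members is plotted for both PRDX1 comparisons and both RANKL comparisons, with 95% intervals as lines, filled points for called changes and dotted lines at 1.5-fold. Socs1 and Socs3 were called with PRDX1 in the first panel at 0.64 and 0.85, and no member was called in the second. Of all genes tested, 5.79% and 10.2% were called in those panels.

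The difference between the PRDX1 effects was tested by the interaction of PRDX1 and RANKL, which is the effect with RANKL minus the effect without it. For Socs3 the interaction was −0.54 on the log2 scale (SE 0.14, 95% interval −0.85 to −0.24, limma adjusted p = 0.0175). For Socs1 it was −0.55 (SE 0.17, 95% interval −0.93 to −0.16, adjusted p = 0.0449). Both passed the test, as did 23.1% of all genes tested, and neither reached 1.5-fold. Thus 0 of the 6 tested members were called, against 8.85% of all genes tested, and a list of 6 cannot show a lower share. By unadjusted p under 0.05 these were also the 2 that passed.

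The size of the interaction depended on the scale. With a pseudocount of 0.1 it was −0.92 for Socs1 (adjusted p = 0.0440) and −1.02 for Socs3 (adjusted p = 0.00420), and both were called. By voom it was −0.94 for Socs1 and −1.15 for Socs3, and Socs3 was called. Over the 14 alternatives the adjusted p ranged from 0.0106 to 0.242 for Socs1 and was not under 0.05 in 10 of them, including voom (0.0517) and quantile normalization (0.0570). For Socs3 it ranged from 0.000710 to 0.0998 and was not under 0.05 in 5 of the 14, with no filter and without the second untreated library, the second with PRDX1 alone, the second with RANKL alone or the second with both. The other 4 tested members had adjusted p-values of 0.504 to 0.891 for the interaction. The osteoclast markers were also lower with both agents than with RANKL alone, and their part in these Socs1 and Socs3 values was not tested.

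Cish, which binds receptors that activate STAT5 (NM_001317354, chr9:107296659-107302784), was expressed at 0.133 and 0.189 FPKM in the untreated cells and at 0.492 and 0.264 with PRDX1. With RANKL alone it was 0.0390 and 0.0210 FPKM, and with both 0.202 and 0.0340. The groups with RANKL were the lowest, although the first library with both agents overlapped the range of those without RANKL. These levels rested on 11 and 22 reads, 43 and 26 reads, 3 and 2 reads, and 26 and 4 reads in the same order.

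From the reads of both libraries of a group, the Cish level had a 95% Poisson interval of 0.114 to 0.233 FPKM in the untreated cells and 0.289 to 0.470 with PRDX1. It was 0.00941 to 0.0677 with RANKL and 0.0824 to 0.174 with both. These intervals cover counting error only, and the libraries given both agents differed by more than it. In a fit with no filter on the level, PRDX1 without RANKL gave Cish a log2 change of 0.24 (limma adjusted p = 0.348). In cells given RANKL it was 0.11 (adjusted p = 0.744). RANKL alone against PRDX1 alone gave −0.42 (adjusted p = 0.0529), the lowest adjusted p of Cish in the 7 comparisons. Exons of Cish overlap Gm17040 by 261 bases and Gm17041 by 479 bases on the opposite strand in GENCODE on GRCm38, and reads were counted on both strands, so reads of these genes cannot be told apart.

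Socs2, which limits growth hormone signaling (NM_001168657, chr10:95411490-95415283), was expressed at 0.147 and 0.382 FPKM in the untreated cells and at 0.801 and 0.493 with PRDX1. With RANKL it was 0.478 and 0.391 FPKM, and with both 0.450 and 0.622. The untreated libraries were the lowest, and those with both agents overlapped those with either agent alone. The group reads were 42, 88, 55 and 97, for 95% Poisson intervals of 0.205 to 0.384, 0.512 to 0.786, 0.324 to 0.559 and 0.431 to 0.649 FPKM. In the fit with no filter, the Socs2 change by PRDX1 was 0.38 in the absence of RANKL (adjusted p = 0.235). In its presence it was 0.10 (adjusted p = 0.981), and Socs2 was called by limma in 0 of the 7 comparisons. Its unadjusted p was under 0.05 in 1 of them, that of PRDX1 without RANKL.

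**Figure D3:**
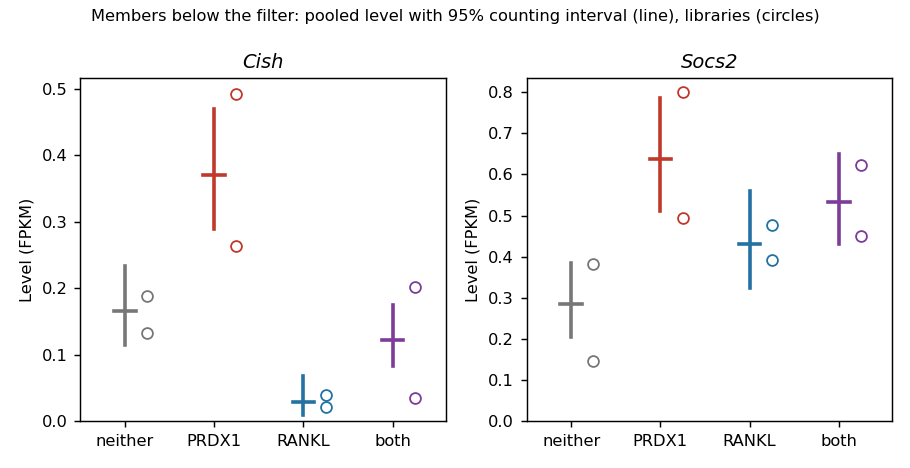
For Cish and Socs2, the members below the filter, the pooled level of each group in FPKM (horizontal tick) is plotted with its 95% Poisson counting interval (line) beside the 2 libraries (circles). The interval of Cish with PRDX1 alone, 0.289 to 0.470 FPKM, lies above those of the other groups, while its libraries are at 0.492 and 0.264.

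Socs5, a member with a long amino-terminal region and a role in the control of the EGF receptor (NM_019654, chr17:87107679-87137588), had the highest mean over all 8 libraries, although Socs4 was above it in both groups without RANKL. Its level was 8.36 and 8.49 FPKM in the untreated cells, 7.21 and 7.13 with PRDX1, 15.2 and 15.2 with RANKL, and 12.9 and 12.3 with both. The groups did not overlap, with PRDX1 below its control in each setting and both RANKL groups above both others. The mean levels were 8.42 ± 0.0941, 7.17 ± 0.0608, 15.2 ± 0.0382 and 12.6 ± 0.410 FPKM (SD, n = 2).

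RANKL raised Socs5 1.81-fold without PRDX1, a log2 change of 0.78 (SE 0.06, adjusted p = 2.39e-06), and 1.76-fold with PRDX1, a log2 change of 0.74 (adjusted p = 1.25e-05). Both were called, and the interaction was −0.05 (95% interval −0.24 to 0.15, adjusted p = 0.759). The effect of PRDX1 was a level 0.851 times that of its control without RANKL, with a log2 change of −0.21 (adjusted p = 0.0313). With RANKL it was 0.829 times, with −0.25 (adjusted p = 0.00822). Both PRDX1 effects passed the test but stayed under 1.5-fold, and the adjusted p was not under 0.05 in 8 of 14 alternatives without RANKL and in 1 of 14 with it. With both agents against neither, Socs5 was 49.6% higher, with a log2 change of 0.53 (adjusted p = 7.58e-05) that was under the threshold and 0.59 by voom, where it was called.

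Socs5 completed the members called with RANKL. Of the 6 tested members 3 were called without PRDX1 (Socs1, Socs3 and Socs5, all higher), against 21.8% of all genes tested. With PRDX1, 2 were called (Socs3 and Socs5), against 8.5%. The members' median log2 change by RANKL was 0.43 without PRDX1 and 0.28 with it, beside 0.10 and 0.07 over all genes. In the same comparisons the osteoclast markers were higher and the macrophage markers lower, at 9857 to 10278 FPKM with RANKL alone and 13421 to 13821 with both. Whether the shift toward osteoclast markers accounts for part of these members' changes was not tested.

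Socs4, the closest relative of Socs5 within the family (NM_080843, chr14:47277143-47291591), was expressed at 9.27 and 9.04 FPKM in the untreated cells and at 10.6 and 10.0 with PRDX1. With RANKL it was 10.8 and 8.74 FPKM, and with both 11.6 and 10.8. The libraries with RANKL alone differed most from each other, with a mean of 9.76 ± 1.45 FPKM, and lay on either side of the untreated and PRDX1 libraries. Among the 7 comparisons, Socs4 passed the test in that of both agents against neither, with a log2 change of 0.26 (adjusted p = 0.0398), under 1.5-fold and with an adjusted p not under 0.05 in 9 of 14 alternatives. The effect of PRDX1 was 0.15 (95% interval −0.05 to 0.36, adjusted p = 0.249) in the absence of RANKL. In its presence it was 0.19 (95% interval −0.02 to 0.39, adjusted p = 0.130), and 0.05 to 0.32 when each library was left out, with an adjusted p of 0.0126 without the first library with RANKL alone. That of RANKL without PRDX1 was 0.08 (adjusted p = 0.485, not under 0.05 in 13 of 14 alternatives), with the sign turned under quantile normalization at −0.0018.

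Socs6, which binds insulin receptor substrates and the receptor KIT (NM_018821, chr18:88865169-88894207), moved opposite to Socs5. Its level was 6.76 and 6.89 FPKM in the untreated cells, 8.68 and 8.35 with PRDX1, 5.61 and 5.02 with RANKL, and 6.19 and 6.10 with both. The groups did not overlap, and RANKL was lower than its control with and without PRDX1. RANKL took Socs6 to 0.779 times its level without PRDX1, a log2 change of −0.31 (SE 0.07, adjusted p = 0.00469), and to 0.721 times with PRDX1, −0.41 (adjusted p = 0.00165). PRDX1 without RANKL gave 1.25-fold more Socs6, a log2 change of 0.28 (adjusted p = 0.0172, not under 0.05 in 4 of 14 alternatives). With RANKL the PRDX1 effect was 0.18 (95% interval 0.01 to 0.35, adjusted p = 0.0782, not under 0.05 in 11 of 14 alternatives).

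RANKL alone against PRDX1 alone gave the one comparison in which Socs6 was called. Its level was 0.624 times as high with RANKL, a log2 change of −0.59 (SE 0.07, adjusted p = 5.84e-05). Without the first PRDX1 library it was −0.57, and without the second library with RANKL alone −0.53, both under 1.5-fold. Socs3 (0.92, adjusted p = 1.56e-05) and Socs5 (0.99, adjusted p = 3.90e-07) were higher with RANKL, so 3 of the 6 tested members were called, against 25.1% of all genes tested. Socs1 was 0.34 higher with RANKL on the log2 scale (adjusted p = 0.0308, not under 0.05 in 9 of 14 alternatives), under 1.5-fold. The median of all genes was 0.13 in this comparison, and 0.05 under quantile normalization.

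Socs7, which binds the adaptor NCK and insulin receptor substrates (NM_138657, chr11:97362292-97398542), had group means of 3.11 to 3.64 FPKM. Its level was 3.68 and 3.57 FPKM in the untreated cells, 3.22 and 2.99 with PRDX1, 3.38 and 3.90 with RANKL, and 3.48 and 3.53 with both. The libraries with PRDX1 alone were below all the others. None of its 7 comparisons passed the test in limma, and at an unadjusted p under 0.05 the count was also 0. The largest change was between RANKL alone and PRDX1 alone, at 0.18 (95% interval −0.02 to 0.37, adjusted p = 0.103). It was 0.26 by voom (adjusted p = 0.0188) and 0.09 to 0.26 when each library was left out, with an adjusted p of 0.0459 without the first library with RANKL alone. The RANKL effect without PRDX1 was 0.0033 (95% interval −0.19 to 0.20), with the sign turned under quantile normalization (−0.055) and upper quartile scaling (−0.049).

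In their pattern over the 8 libraries, Socs1 and Socs3 were the most alike pair of tested members, with a Pearson r of 0.94 on the log2(FPKM + 1) scale. Socs5 and Socs6 were the most opposed, at −0.94, and Socs6 and Socs7 had −0.77. The libraries fall into 4 treatment groups and share their groups across genes, so these values are descriptions and carry no test.

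Among the 11694 other genes tested, the patterns closest to Socs3 over the 8 libraries were those of Nupr1, N4bp1 (Pearson r 0.997 each) and Btg1 (0.994). Those closest to Socs1 were Rwdd2a (0.995), Bcl2l11 (0.987) and Mthfd2 (0.984). Socs5 was most like Atad5, Ptpn22 (0.997 each) and Slc38a2 (0.996), and Socs6 most like Sgpl1 (0.996), Snx1 (0.987) and Rab11a (0.983). For Socs4 and Socs7 the nearest patterns were less close, at 0.966 for Spryd7, 0.957 for Uprt and 0.944 for Ccdc175, and at 0.952 for Ppp2r5d, 0.948 for Vps9d1 and 0.941 for Cdk6. Nupr1, for instance, had mean levels of 15.1, 26.1, 50.2 and 62.8 FPKM in the order in which Socs3 had 0.823, 2.29, 5.23 and 6.73.

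The pathway that the SOCS proteins restrain was described by lists of its components. The share of all tested genes called was 5.79% with PRDX1 without RANKL, 10.2% with PRDX1 with RANKL and 21.8% with RANKL without PRDX1, and no list was tested against it. The lists were chosen with earlier results of these data known, so a higher share in a list is a description and no evidence of enrichment. Of the 34 receptors that signal through JAK kinases, 24 were tested. PRDX1 raised 5 without RANKL (Csf2rb, Csf2rb2, Csf3r, Il2rg and Il7r) and lowered 2 (Il12rb2 and Lifr), together 29.2% of the list against 5.79% of all genes. With RANKL it raised 6, 25% against 10.2%. Il7r, the IL-7 receptor, went from 23.9 to 52.1 FPKM without RANKL (log2 change 1.09) and from 5.76 to 30.8 FPKM with RANKL (2.24). Csf2rb2, a beta chain of the IL-3 receptor, rose by 1.47 and 0.70. RANKL without PRDX1 raised 4 of the receptors (Ifngr1, Csf2rb, Csf2rb2 and Il2rg) and lowered 8, 50% against 21.8%.

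The 11 JAK kinases and STAT factors were all tested. Without RANKL, 1 of them was called with PRDX1, Stat2, the interferon factor (log2 change 0.62), 9.09% of the list against 5.79% of all genes. With PRDX1 in the presence of RANKL 2 of the 11 were called, 18.2% against 10.2%, and Stat2 (1.42) was among them. RANKL lowered Stat2 and Stat4 in the absence of PRDX1, 18.2% against 21.8%. In its presence 0 were called by limma and by voom, against 8.5% of all genes, and 3 had an unadjusted p under 0.05. Of the 28 ligands of these receptors 6 were tested. Without RANKL, PRDX1 gave 0 calls among them by limma and 1 by voom, and 4 had an unadjusted p under 0.05. With RANKL it raised 1 by limma, Ebi3, a subunit of IL-27 (0.72), 16.7% against 10.2%, with 4 called by voom and 5 at an unadjusted p under 0.05.

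Of 18 tested genes listed as targets of STAT3 and STAT5, PRDX1 raised 5 without RANKL (Bcl3, Junb, Id1, Id2 and Timp1) and 8 with RANKL, and every call was a rise. These were 27.8% of the list against 5.79% of all genes, and 44.4% against 10.2%. The members with the largest change were Id1 (2.21 and 1.99) and Id2 (1.85 and 1.13), which encode inhibitors of helix-loop-helix factors and are also targets of other pathways. The median log2 change of the list was 0.25 without RANKL and 0.42 with RANKL, against −0.04 and −0.06 over all genes. RANKL without PRDX1 raised 4 of these genes (Pim3, Bcl3, Myc and Junb) and lowered 6, 55.6% against 21.8%.

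Among proteins that act beside SOCS, the lists were short and their shares rest on few genes. Of 14 other negative regulators of cytokine receptors, PRDX1 raised 2 without RANKL, Usp18 (0.94), which damps interferon signaling, and Cblb (0.71), a ubiquitin ligase, 14.3% against 5.79% of all genes. With RANKL it raised 1, Usp18 (1.03), 7.14% against 10.2%. The 6 tested genes of the elongin and cullin complex that the SOCS box recruits had 0 calls with PRDX1 and with RANKL in both settings, by limma and by voom. Of all genes, 5.79% and 10.2% were called with PRDX1 and 21.8% and 8.5% with RANKL, without and with the other agent. A list of 6 cannot show a lower share. At an unadjusted p under 0.05, 2 of them passed with PRDX1 alone and 3 with PRDX1 added to RANKL. For RANKL, 5 of them passed without PRDX1 and 1 with it. Of 15 tested genes of other proteins with a SOCS box, 0 were called by limma with PRDX1 in either setting and 2 by voom in each, with 6 and 8 at an unadjusted p under 0.05. RANKL without PRDX1 raised Wsb2 and Asb2 of this list and lowered Asb13, 20% against 21.8%, and 6 were called by voom. Of 6 tested substrates and receptors bound by SOCS proteins, PRDX1 without RANKL gave 0 calls by limma and by voom, with 1 at an unadjusted p under 0.05. With RANKL it changed 1, Egfr, the EGF receptor, which went from 2.60 to 0.680 FPKM (log2 change −1.10), 16.7% against 10.2%.

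**Figure D4:**
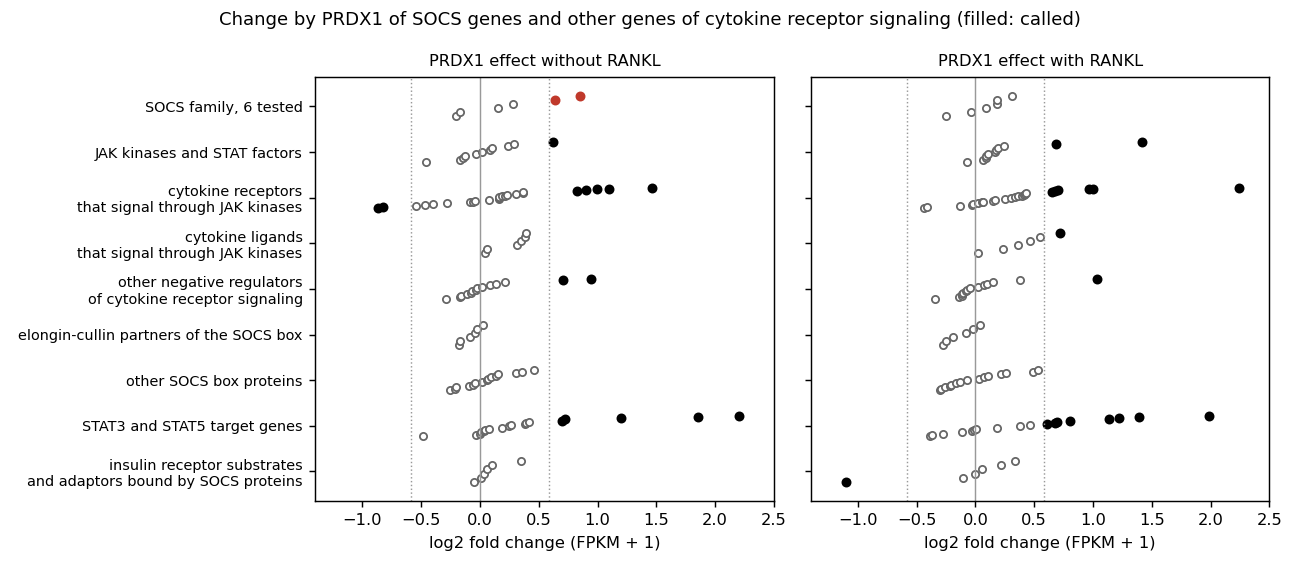
The log2 fold change of log2(FPKM + 1) by PRDX1 (horizontal axes) of every tested gene is plotted by list (vertical axis), without RANKL at left and with RANKL at right, with filled points for called genes and dotted lines at 1.5-fold. The SOCS family has 2 called genes at left and 0 at right, and the elongin and cullin list has 0 in both. Of all genes tested, 5.79% were called at left and 10.2% at right, so a list of 6 cannot show a lower share.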

How the data were processed

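Per the labels, the authors used HISAT2, HOMER and DESeq2 with mm10. They deposited FPKM, made with HOMER from reads on the exons of RefSeq genes on both strands, with 1 transcript per gene. The table held 0 columns of per-sample values beyond the 8 libraries. FPKM times length gave whole reads, within 0.1, for 100% of the checked genes under 2000 bases and up to 50 reads, which gave the library totals of 27284604 to 46169508 reads. Poisson intervals cover counting error only, and the other intervals are those of limma.

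Values of log2(FPKM + 1) for 11700 genes averaging at least 0.5 FPKM were fitted jointly over the 4 groups by limma 3.58.1 (R 4.3.3), using its intensity trend, which left 4 residual degrees of freedom. Benjamini-Hochberg adjustment was over all genes tested. Calls needed an adjusted p under 0.05 and 1.5-fold. The model was tested on simulated data. The members, gene lists, markers and motifs were chosen with earlier results of these data known. All 8 members were named, with up to 2 genes per list (the largest changes among PRDX1 calls with groups that did not overlap) and the 3 genes most like each tested member. Other genes of short counts were named after their values were seen. Alternatives were a pseudocount of 0.1, no filter, quantile and upper quartile scaling, voom on the recovered reads, a replicate block and leaving out each library. Some genes of the lists are not reported here.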

Additional observations from a re-analysis of the deposited data

Results flagged for a closer look

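The effect of PRDX1 on Socs1 and Socs3 differed between cells with and without RANKL by a test of the difference itself, the interaction in limma. For Socs1 the log2(FPKM + 1) change by PRDX1 was 0.64 without RANKL and 0.09 with RANKL, a difference of −0.55 (adjusted p = 0.0449). For Socs3 it was 0.85 and 0.31, a difference of −0.54 (adjusted p = 0.0175). Both libraries with PRDX1 were above both without it for Socs3 in each setting, and for Socs1 in cells without RANKL. On this scale, which understates changes of low genes, neither difference reached 1.5-fold, and 23.1% of all genes tested passed the same test. With a pseudocount of 0.1 the differences were −0.92 for Socs1 and −1.02 for Socs3, and by voom −0.94 and −1.15. The adjusted p was not under 0.05 in 10 of 14 alternatives for Socs1 and in 5 of 14 for Socs3.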

How the results depend on the processing

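Of the alternative values for single members, 563 kept their direction and their side of the call, 10 became called, 4 lost the call and 11 turned sign. The count of members called with PRDX1 in the absence of RANKL was 2, 1 with no filter on the level, and 1 to 2 when each library was left out. The count for the interaction was 0, 2 with a pseudocount of 0.1 and 1 by voom. It stayed at 0 in 7 of the 14 alternatives. The remaining 89 alternative counts were within 1.5 times of the value given. The sign of changes near 0 turned for Socs4 and Socs7. When each library was left out, the Socs7 effect of PRDX1 with RANKL (−0.04) ranged from −0.12 to 0.041 and that of RANKL without PRDX1 (0.0033) from −0.078 to 0.084, with −0.014 without the second untreated library. Upper quartile scaling gave −0.049 for the latter, and quantile normalization −0.055. The Socs4 effect of RANKL without PRDX1 (0.08) ranged from −0.060 to 0.22, and was −0.0018 under quantile normalization. Socs4 in RANKL alone against PRDX1 alone (−0.07) ranged from −0.21 to 0.063, and its interaction (0.03) from −0.11 to 0.17, with −0.0026 and −0.014 among them. The cause was not tested. With the replicate block the log2 changes were the same (0.64 for Socs1 and 0.85 for Socs3 by PRDX1 without RANKL), and the counts of members called were 2, 0, 3, 2, 2, 3 and 0 in the order of PRDX1 without and with RANKL, RANKL without and with PRDX1, both against neither, RANKL alone against PRDX1 alone, and interaction, as without it. The study states no pairing of the libraries, so the numbers were not used as pairs. Libraries of the same number had deviations correlated at 0.008 to 0.096 over the 11700 genes. Depth limits Cish and Socs2, with 2 to 54 reads per library.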
